A study of Canis lupus familiaris with 13 samples.

Results

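Hearts of mongrel dogs that had been paced were compared with hearts of control mongrels, gene by gene, on an Affymetrix canine expression array. The comparison takes in 6 of the study's 13 samples: the 3 titled as paced mongrels (LV01, LV02 and LV04) and the 3 titled as control mongrels (P1, P4 and P9). All 23836 probe sets of the array that are not controls, of 23913 in all, were compared. Weight is given to the 7152 well-expressed ones, whose mean signal over the 13 arrays lay at or above the 70th percentile, a signal of 392. A probe set is a group of short probes that reads 1 transcript or more. Its signal is a brightness on a linear scale that the authors scaled array by array.

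The control group carried the mongrel background and no stated disease or treatment, and the paced group carried the same background with pacing. The other arrays were of dogs with dilated cardiomyopathy (DCM), 4 Boxers and 3 Dobermans. The Boxers serve below as a diseased group for comparison. The labels give heart tissue for every sample, and give no chamber, pacing site, pacing rate, length of pacing, age or sex. Nothing in them says more of the replicates than that they are separately named samples, so p-values measure the spread between these samples.

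Fast pacing over a long period is an established way to bring on a dilated, weakly contracting ventricle in dogs, and it is widely used as a model of heart failure. A failing ventricle is known for a partial return to the gene programme of the fetal heart, for changes in the junctions that carry the impulse from cell to cell, for a turn away from fatty acids as fuel, and for remodelling of the matrix between the muscle cells. The genes described here are ordered by those roles: contraction and excitation, fuel use, matrix and growth factors, vessels and immune cells, and the making and clearing of protein.

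The paced arrays stood apart from the control and Boxer arrays before any gene was considered. Among well-expressed probe sets the correlation of log2 signals, after quantile normalization, was 0.944 to 0.963 between control arrays and 0.942 to 0.950 between paced arrays, but 0.883 to 0.905 between a control and a paced array and 0.889 to 0.909 between a paced and a Boxer array. The control and Boxer arrays lay closer, at 0.922 to 0.954. The median signal was 208 to 219 on the paced arrays, 142 to 146 on the controls and 132 to 146 on the Boxers. The mean signal of the 18 spike-in control probe sets was 10980 to 19673 on the paced arrays and 3721 to 5910 on the controls. The GAPDH 3' to 5' ratio was near 1 in both groups, at 0.967 to 0.99 in paced and 1.02 to 1.07 in control samples. The median, the spike-in mean and the GAPDH ratio each separated the 3 paced from the 3 control arrays, with an exact two-sided permutation p of 0.1, the smallest that 3 against 3 allows (0.117 adjusted over 7 measures). The actin 3' to 5' ratio did not separate them (exact permutation p = 0.4). The labels name no array batch, so pacing and any difference in how these arrays were made or hybridised cannot be told apart.

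The cardiomyocyte markers were those of heart muscle in both groups: 7 of 8 were on the array, all 7 were well expressed, and their summed signal was 142493 to 212438 in controls and 124087 to 142463 in paced hearts. This and the later sums are of deposited signals. The median log2 change of these markers was -0.46 on that scale and -0.06 after quantile normalization. The atrial light chain MYL7 was at 8278 to 9985 in controls and 7650 to 10849 in paced hearts. A second atrial light chain, MYL4, was uneven within both groups, at 521, 329 and 5163 in P1, P4 and P9 and at 1911, 5992 and 4109 in LV01, LV02 and LV04. Tissue pieces hold several cell types, and fewer cells of a type and less RNA per cell cannot be told apart in them.

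Because the level of dim probe sets was raised on the paced arrays, each probe set was tested with limma on the deposited scale and again after quantile normalization, and it was called only where the adjusted p was under 0.05 in both, in 1 direction. "Rose" and "fell" below mean such a call, log2 changes are paced minus control after quantile normalization with their standard error (SE) unless the deposited scale is named, and signals are as deposited. Of all probe sets, 2764 (11.6%) rose and 1742 (7.31%) fell. Of the well-expressed ones, 558 (7.8%) rose and 809 (11.3%) fell. The median size of a call among these was 0.75 in either direction, and 127 rises and 236 falls were larger than 1 on the log2 scale.

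The balance of rises and falls depended on the scale. On the deposited scale alone 71.3% of all calls were rises, 5471 against 2197 falls, and after quantile normalization alone 49.9% were, 2949 against 2966. Among well-expressed probe sets the share of rises was 33.9% on the deposited scale and 44.1% after quantile normalization. Over all probe sets the median change was 0.21 as deposited and -0.01 after quantile normalization, and the plot of change against signal shows where that difference arises. With each array centred on its median instead, 99 of the well-expressed probe sets were called as rises against 4426 falls, and the median change over the 6540 genes described below moved from -0.05 to -0.50. All 809 falls of well-expressed probe sets kept their call under that centring, and 17.7% of the 558 rises did. The paced arrays had the higher medians, so the centring lowers every paced value against the controls. Falls deepen and rises shrink by construction, so the kept falls are no test of the falls.

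**Figure D1:**
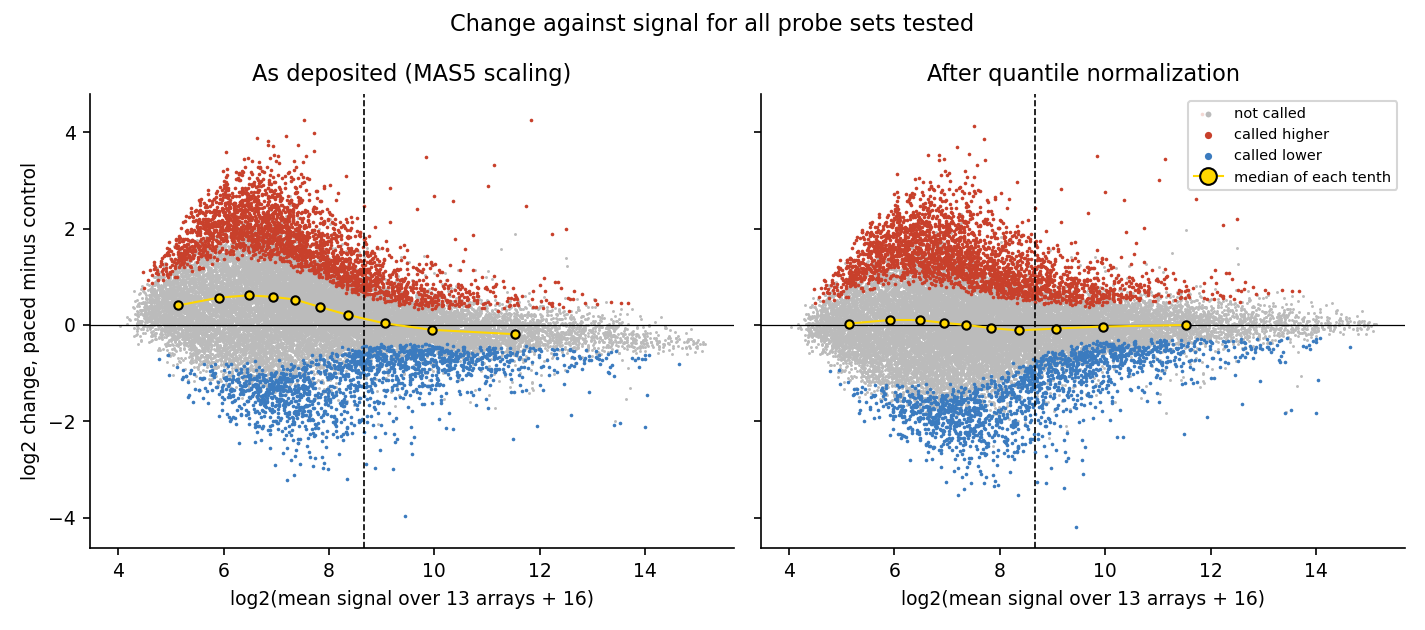
Log2 change of paced against control hearts (vertical axis) against log2 of the mean signal (horizontal axis) for 23836 probe sets, as deposited (left) and after quantile normalization (right); red and blue points were called higher and lower in both, yellow points are medians of probe sets grouped by signal, and the dashed line is the well-expressed level. On the deposited scale the medians run from 0.61 among dim probe sets to -0.19 among the brightest, and after quantile normalization they stay between -0.11 and 0.10.

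The threshold for well-expressed probe sets marked no break in the data. Of the 1191 probe sets just below it (mean signal 314 to 392) 22.6% were called, and of the 1193 just above it (392 to 517) 23.6% were. For the genes below, each gene is read from its brightest probe set on average over the arrays, leaving 6540 genes. Of these 577 (8.82%) rose and 627 (9.59%) fell; among the 3410 well-expressed genes 6.89% rose and 10.9% fell, and among the 3130 dimmer genes 10.9% rose and 8.21% fell. These shares are the background against which each group of genes is read. Among the called well-expressed genes, 119 had another well-expressed probe set. At least 1 other was called the same way in 50 of the 119 and the opposite way in 9, and in 62 no other was called. A call on the brightest probe set was thus often not borne out by another. In 970 of the 6540 genes every paced heart lay above every control in both scalings, and in 1017 below. The genes named below for the largest changes were taken only from those without overlap, so its absence in them was fixed by that choice.

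The largest rise of a named well-expressed gene was that of ACTA1, which encodes skeletal alpha-actin, the actin isoform of the fetal heart and of skeletal muscle. Its signal was 555, 520 and 1012 in P1, P4 and P9 and 6501, 6465 and 7277 in LV01, LV02 and LV04. Every paced heart was thus more than 6 times as bright as the brightest control, and the groups did not come near each other. The log2 change was 3.44 ± 0.21 (10.8-fold higher; limma, adjusted p = 9.15e-06; 3.31 on the deposited scale), and it stayed between 3.26 and 3.72 when any 1 heart was left out. On this probe set the Boxers, at 871 to 1242, lay close to the controls.

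ACTA1 has 4 well-expressed probe sets, and they did not all move together. The second one read 645, 656 and 1025 in controls and 5390, 5372 and 6353 in paced hearts, a rise of 3.02 ± 0.17. The third fell, from 3410, 2680 and 2558 in controls to 1382, 910 and 1334 in paced hearts, a log2 change of -1.13 ± 0.24. On the third the Boxers read 88.6 to 183, called lower than controls (-3.93), and paced hearts were higher than Boxers (2.81 ± 0.22). The fourth was not called, with a log2 change of -0.21. Which transcripts each of the 4 probe sets reads was not tested, so the direction depends on the probe set.

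Osteopontin (SPP1), a secreted matrix protein made by injured heart muscle and macrophages, had the next largest rise. It read 309, 58.7 and 513 in P1, P4 and P9 and 1320, 2381 and 835 in LV01, LV02 and LV04. The groups did not overlap, but both were wide, and the change of 2.59 ± 0.77 (adjusted p = 0.0308) lost its call without P1 (2.81), P4 (1.79), LV01 (2.64) or LV02 (2.21). Boxers ranged from 664 to 5681, and the paced minus Boxer difference was 0.04 ± 0.72.

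GPX3, the secreted glutathione peroxidase that clears peroxides outside cells, read 1422, 3102 and 1780 in controls and 11012, 7803 and 5835 in paced hearts. The lowest paced heart was above the highest control, and the rise was 2.19 ± 0.47 (adjusted p = 0.00672). Both of its other well-expressed probe sets rose as well, by 2.01 and 1.92. It kept its call whichever heart was left out.

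The other large rises had smaller spreads or smaller sizes. RBM27, an RNA-binding protein, went from 117, 224 and 191 to 926, 1044 and 1082 (2.42 ± 0.22), with no overlap, while its other, dimmer probe set was not called (-0.66 ± 0.19). ADAM23, a membrane protein of the disintegrin family, rose by 1.59 ± 0.18 and ALKBH6, of the AlkB dioxygenase family, by 1.57 ± 0.15. The collagen receptor kinase DDR1 rose by 1.46 ± 0.19 (-0.40 on a dimmer probe set, not called), the kinase MAP4K2 by 1.35 ± 0.33 and PFKP, an isoform of the glycolytic enzyme phosphofructokinase, by 1.52 ± 0.34. All 6 kept their calls in every fit that left out 1 heart.

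The kinase SGK1, a target of corticosteroids, read 61.7, 442 and 337 in controls and 716, 561 and 1040 in paced hearts. The change of 1.65 ± 0.50 lost its call without LV01 (1.70) or LV04 (1.42), and without P1 it was 0.90. HIF3A, a hypoxia-inducible factor subunit, read 277, 259 and 268 against 946, 1173 and 525, and the change of 1.54 ± 0.40 lost its call without LV01 (1.45) or LV02 (1.29). The lysosomal protease CTSS went from 444, 652 and 456 to 1354, 1093 and 1306 (1.33 ± 0.31). The other well-expressed CTSS probe set was not called (0.37 ± 0.33), nor were the dimmer ones, which ran from -1.17 to 0.55. With each array centred on its median, SPP1 (2.07), SGK1 (1.21), HIF3A (1.08) and CTSS (0.76) were no longer called.

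GJA1, among the largest falls, encodes connexin 43, the main gap junction protein that couples ventricular muscle cells. It read 5116, 6257 and 6441 in P1, P4 and P9 and 1258, 1306 and 882 in LV01, LV02 and LV04. All 3 paced hearts lay far below the lowest control, and the log2 change was -2.27 ± 0.19 (4.82-fold lower; limma, adjusted p = 4.96e-05; -2.37 as deposited). Boxers read 2557 to 3703, between the groups, and the paced hearts were lower than the Boxers by -1.39 ± 0.18 (adjusted p = 0.000382).

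Other large falls were in genes of protein turnover and mitochondria. UBXN1, a ubiquitin-binding cofactor, went from 1203, 1121 and 943 to 144, 154 and 79.5 (-3.38 ± 0.21). Its 3 other probe sets, all below the well-expressed level, were not called, with log2 changes of 0.90, -0.04 and 1.14. MTIF3, the mitochondrial translation initiation factor, went from 538, 561 and 730 to 72.8, 89.5 and 100 (-2.98 ± 0.17). CLPB, a mitochondrial protein-disaggregating ATPase, went from 939, 1194 and 1112 to 148, 268 and 159 (-2.81 ± 0.23). In none of these did a paced heart reach the range of the controls, which was a condition for being listed among the largest changes.

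The rest of the 12 largest falls were in genes of varied roles. Among them were VPS72, a chromatin remodelling subunit (-2.72 ± 0.25), and MCAT, an enzyme of mitochondrial fatty acid synthesis (-2.40 ± 0.28). ZNF532, a zinc finger protein, fell by 2.38 on the log2 scale. THRB, the beta receptor of thyroid hormone, went from 547, 537 and 468 to 96, 214 and 115 (-2.23 ± 0.27). CARNMT1, which methylates carnosine, fell by 2.10, and ECSCR and CD3E are described with the vessels and lymphocytes. All 12 falls kept their calls in every fit that left out 1 heart.

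**Figure D2:**
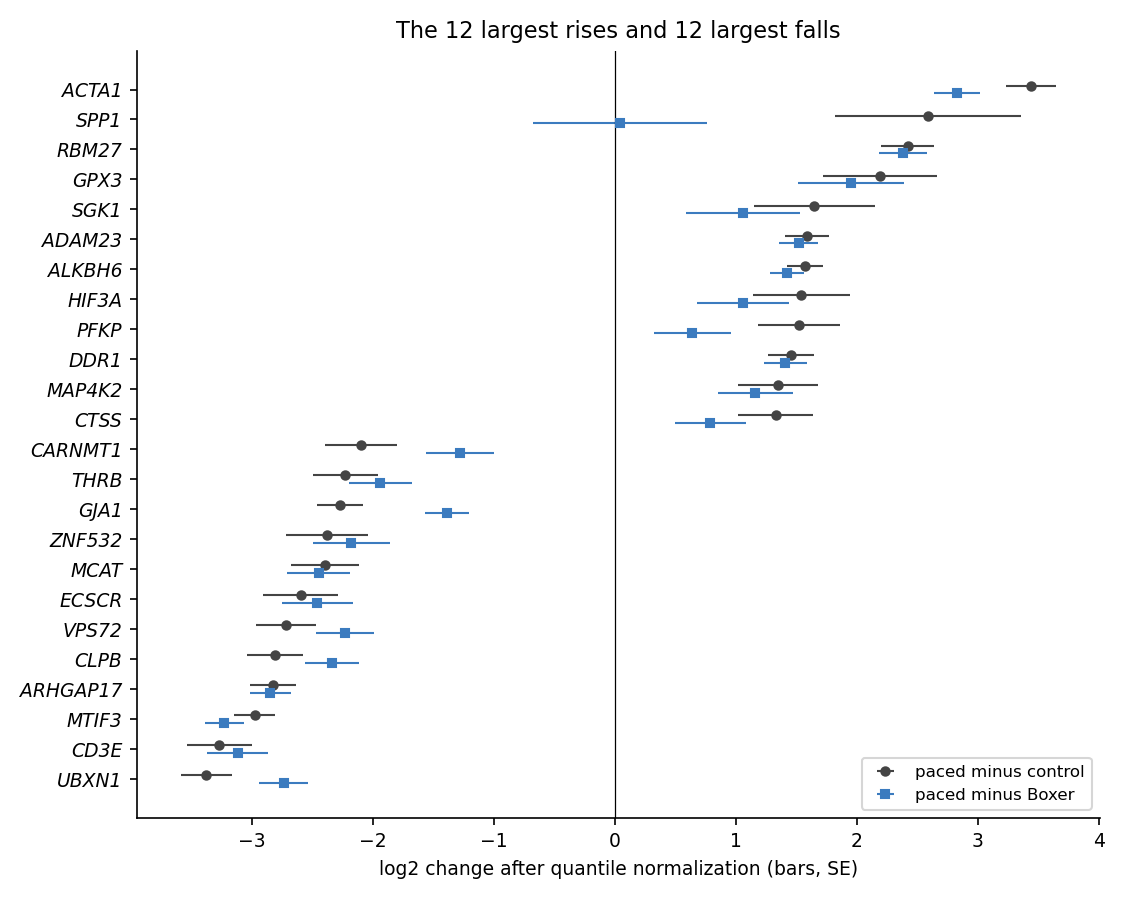
Log2 change after quantile normalization (horizontal axis; bars, SE) of the 12 named genes with the largest rises and the 12 with the largest falls, for paced minus control (circles) and paced minus Boxer (squares). The 12 falls lie below 0 in both comparisons, from -1.28 for CARNMT1 against Boxers to -3.38 for UBXN1 against controls, while SPP1 lies at 2.59 against controls and 0.04 against Boxers.

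The same probe sets were set against the Boxers, whose hearts carry a naturally occurring cardiomyopathy. This comparison shares the 3 paced arrays with the one against controls, so it is no independent repeat. Of the 6540 genes 650 (9.94%) were higher and 691 (10.6%) lower in paced than in Boxer hearts, whereas Boxers against controls gave 3 higher and 10 lower. Of the 122 genes named by rule and called, 78 were also called against Boxers in the same direction. Among the 24 of them with the largest changes, 19 were. SPP1, SGK1 (1.06 ± 0.47), HIF3A (1.06 ± 0.38), PFKP (0.64 ± 0.32) and CTSS (0.79 ± 0.29) were not.

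The sarcomere list, of thick and thin filaments, Z-disc and M-band, had 28 genes on the array. ACTA1, NEXN and PDLIM3 rose (10.7%, against 8.82% of all genes) and 0 fell (against 9.59%); on the deposited scale alone 4 rose and 4 fell, and with median centring 1 rose and 22 fell. The list's median change was 0.03 (-0.31 as deposited), against -0.05 (0.01) over all genes. The nexilin gene NEXN, whose product holds actin at the Z-disc, went from 2904, 2456 and 3296 to 5098, 5970 and 4322. The groups did not overlap and the change was 0.99 ± 0.13; under median centring it was 0.32, not called. PDLIM3, an actinin-binding Z-disc protein, changed by 0.91 ± 0.25 and lost its call without P1 (0.68), P4 (0.93), LV02 (0.89) or LV04 (0.79), and under median centring (0.30).

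The major contractile genes gave no call on their brightest probe sets. Beta-myosin heavy chain, MYH7, read 38486, 39028 and 26108 in P1, P4 and P9 and 23251, 26259 and 27729 in LV01, LV02 and LV04. The paced range overlapped P9 but not P1 and P4, and the log2 change was -0.02 ± 0.08 (-0.40 as deposited, adjusted p = 0.0815 by limma). MYL2 (-0.02 ± 0.08), TNNI3 (-0.06 ± 0.09), TNNT2 (-0.08 ± 0.09), TTN (0.05 ± 0.08) and cardiac actin ACTC1 (0.06 ± 0.08) gave like values, and on the deposited scale they ran from -0.32 to -0.49, where TNNT2 passed (limma adjusted p = 0.0483). Of the 5 other well-expressed probe sets of MYH7, 2 fell (-0.34 and -0.51), and of the 11 of TTN 1 rose (1.69) and 1 fell (-1.35).

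Calcium release, uptake and exchange had 18 genes on the array, of which 2 rose (11.1%) and 3 fell (16.7%). The SR calcium pump ATP2A2 read 24114, 25473 and 17099 in controls and 14124, 16649 and 17578 in paced hearts (-0.07 ± 0.10, not called, though it passed on the deposited scale at -0.45). Of its 6 other well-expressed probe sets 2 fell, by 0.35 and 0.55 on the log2 scale, and a dim one rose (1.19). The release channel RYR2 read 8946, 8123 and 7556 against 3960, 5032 and 6560, apart on the deposited scale and overlapping after quantile normalization, and its change of -0.47 ± 0.18 passed on the deposited scale alone (-0.69, limma adjusted p = 0.0124). Another well-expressed RYR2 probe set fell (-1.21).

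Genes of calcium entry and of the dephosphorylation of calcium-handling proteins gave calls. CACNB2, the beta subunit of the L-type calcium channel, went from 516, 615 and 549 to 314, 382 and 359 (-0.88 ± 0.16), with no overlap. CACNA1C, the pore subunit of that channel, moved the other way, from 267, 178 and 228 to 532, 525 and 464 (0.96 ± 0.20); its probe set lies below the well-expressed level. The other CACNA1C probe sets, all dim, did not move together, with 1 higher (1.08 ± 0.36), 1 lower (-1.52 ± 0.29) and 1 not called (-0.06), so the direction depends on the probe set. PPP1CB, a catalytic subunit of protein phosphatase 1, fell by 0.75 on the log2 scale. The sodium-calcium exchanger SLC8A1, which carries calcium out of the cell, went from 1472, 1879 and 2284 to 852, 1159 and 929 (-0.82 ± 0.20), a call lost without LV01 (-0.72).

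Of 10 sodium, potassium and pacemaker channel genes 1 rose and 1 fell (10% each), near the shares of all genes (8.82% and 9.59%). KCNJ8, the pore of the ATP-sensitive potassium channel of vessels and heart, went from 2961, 3383 and 2326 to 915, 1201 and 1301. No paced heart reached the control range, the change was -1.20 ± 0.19 (adjusted p = 0.0016), and paced hearts were also lower than Boxers (-0.72 ± 0.18). A dimmer KCNJ8 probe set leaned the other way and was not called, at 0.78 ± 0.32 (1.32 as deposited). It read 52.3 to 85.2 in controls and 151 to 247 in paced hearts, and was called higher in paced than in Boxer hearts (0.95 ± 0.30). KCNMB1, the beta subunit of the calcium-activated potassium channel of smooth muscle, rose from 290, 291 and 374 to 669, 616 and 515 (0.78 ± 0.19), which under median centring was 0.37, not called.

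At the intercalated disc, where muscle cells join, 1 of 19 genes rose and 2 fell (5.26% and 10.5%). Beside GJA1, the integrin beta-1 gene ITGB1 went from 4358, 4935 and 4124 to 1933, 2403 and 2000. Every paced heart read well below every control, the change was -0.91 ± 0.14 (adjusted p = 0.00103), and its second well-expressed probe set fell by a like amount (-0.94). The desmosomal cadherin DSC2 rose, from 2278, 1714 and 2796 to 3805, 3701 and 3798 (0.92 ± 0.17; 0.25 and not called under median centring). Desmoplakin, DSP, was not called (-0.16 ± 0.11; -0.44 as deposited, adjusted p = 0.0183 by limma on that scale).

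**Figure D3:**
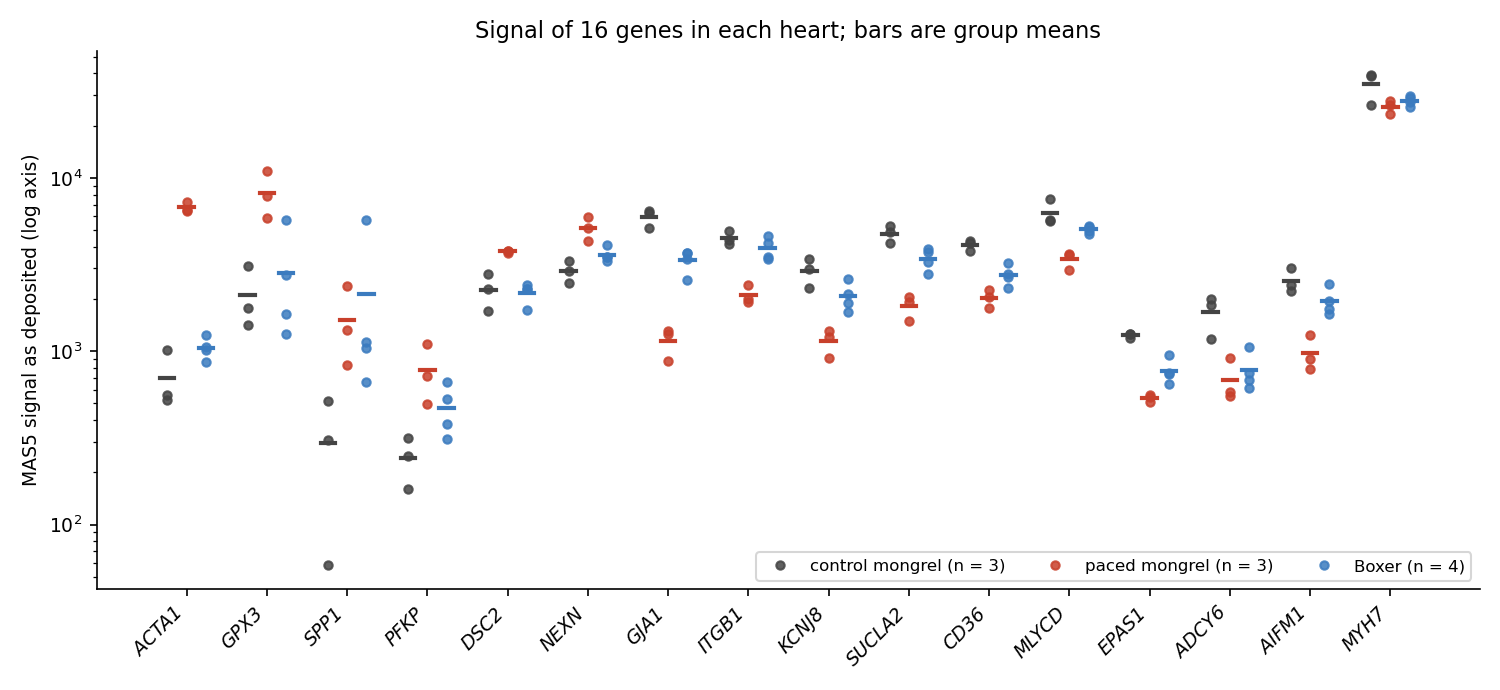
Deposited MAS5 signal (vertical axis, log scale) of 16 genes in each control mongrel (grey), paced mongrel (red) and Boxer (blue) heart; points are hearts and bars are group means. ACTA1 reads 6465 to 7277 in paced hearts and at most 1012 in controls, GJA1 reads at most 1306 in paced hearts and at least 5116 in controls, and the paced and control ranges of MYH7 overlap.

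Among fuel genes the falls gathered at the citric acid cycle and the entry of pyruvate into it. Of 25 such genes, 24 of them well expressed, 10 fell (40%) and 0 rose, against 9.59% and 8.82% of all genes and 10.9% and 6.89% of well-expressed ones. The list's median was -0.19 (-0.45 as deposited), against -0.03 (-0.12) over well-expressed genes. The count was 17 on the deposited scale alone, 10 after quantile normalization alone and 22 with median centring. It was 5 without P4, 6 without LV01, 7 without P1, 8 without LV04 and 10 without P9 or LV02, while over all genes the count of falls went from 627 to between 435 and 547. With the Dobermans in the fit 1 of the 25 was called, and 252 of all 6540 genes.

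SUCLA2, part of the ligase that makes succinate from succinyl-CoA, had the largest fall among its well-expressed members. It went from 4230, 4844 and 5237 in P1, P4 and P9 to 1496, 1929 and 2047 in LV01, LV02 and LV04. The lowest control read more than the highest paced heart by a wide margin, and the change was -1.23 ± 0.16 (limma, adjusted p = 0.000497). PDHB, the E1 beta subunit of pyruvate dehydrogenase, went from 8942, 9940 and 9107 to 5127, 5608 and 5469 (-0.58 ± 0.09), and here too the groups were far apart. Both were also lower than in Boxers, by -0.72 ± 0.15 and -0.43 ± 0.08.

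PDP1, the phosphatase that switches pyruvate dehydrogenase on, fell from 381, 468 and 406 to 106, 177 and 226 (-1.70 ± 0.26), below the well-expressed level. PDHX, a structural component of the same complex (-0.57), and GOT2, the mitochondrial aspartate aminotransferase of the malate shuttle (-0.56), fell and kept their calls whichever heart was left out. OGDH, the E1 subunit of the oxoglutarate dehydrogenase complex, changed by -0.91 ± 0.25 and lost its call without P1 (-0.88), P4 (-0.69), LV01 (-0.77) or LV04 (-0.87). The remaining 4 falls, in IDH3B (-0.37), IDH3G (-0.42), SDHB (-0.33) and SUCLG1 (-0.30), were small, and each lost its call in 2 to 4 of the 6 fits that left out 1 heart, P4 among the hearts that mattered for all 4 (-0.36, -0.35, -0.30 and -0.26 without it).

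Fatty acid uptake and oxidation gave 1 rise (3.12%) and 4 falls (12.5%) among 32 genes, with a median of -0.12 (-0.35 as deposited). The falls numbered 13 on the deposited scale alone, 5 after quantile normalization alone, 23 with median centring and 1 with the Dobermans in the fit. CD36, the transporter that takes long-chain fatty acids into the cell, went from 4225, 4295 and 3776 to 2048, 1774 and 2245. The groups were well apart and the change was -0.85 ± 0.14 (adjusted p = 0.00158), while against Boxers it was -0.24 ± 0.13, not called. MLYCD, which removes malonyl-CoA and so frees fatty acid entry into mitochondria, fell by 0.71 on the log2 scale. The electron transfer flavoprotein that drains fatty acid oxidation gave opposite calls: its dehydrogenase ETFDH went from 10100, 11504 and 9872 to 6344, 6859 and 5851 (-0.49 ± 0.10; 1 other probe set lower at -1.40 and 1 dim one higher at 1.43), and its alpha subunit ETFA from 4832, 3997 and 4325 to 7050, 5678 and 6044 (0.68 ± 0.13; 0.00 under median centring). PDK4, which switches pyruvate dehydrogenase off when fat is burned, was not called (0.01 ± 0.41), with 15207, 13634 and 11245 in controls and 9122, 12512 and 12227 in paced hearts.

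**Figure D4:**
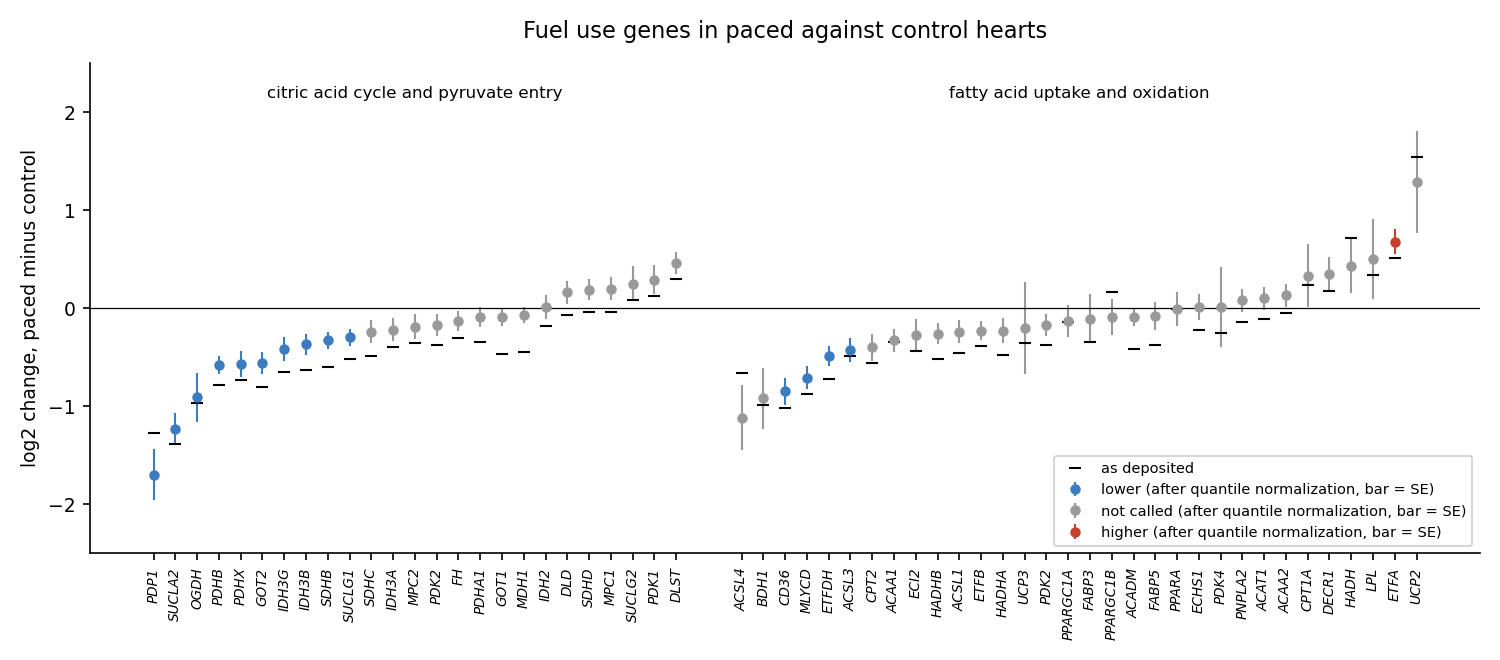
Log2 change of paced against control hearts (vertical axis) for the 25 genes of pyruvate entry and the cycle (left) and 32 of fatty acid uptake and oxidation (right), after quantile normalization (points; bars, SE; blue called lower, red called higher, grey not called) and as deposited (black dashes). The 10 called genes on the left run from -0.30 for SUCLG1 to -1.70 for PDP1, and on the right 4 were called lower and ETFA alone higher.

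In the respiratory chain complex I had 4 falls and 1 rise among 30 genes (13.3% and 3.33%; median -0.08), and complexes III and IV with cytochrome c had 4 falls and 0 rises among 15 (26.7%; median -0.11). The falls of complex I numbered 11 on the deposited scale alone, 26 with median centring and 1 with the Dobermans in the fit, and those of complexes III and IV 6, 13 and 2. Complex I had 2 falls without P4, P9 or LV01, and complexes III and IV had 4 or 5 whichever heart was left out. The falls were shallow in the well-expressed subunits. NDUFB11 of complex I went from 16735, 17458 and 13103 to 9815, 10284 and 8512 (-0.45 ± 0.09), NDUFA2 changed by -0.50 ± 0.09, and COX8A of complex IV went from 7749, 9121 and 7419 to 5027, 4880 and 5145 (-0.47 ± 0.10). Cytochrome c1, CYC1, fell by 0.46 on the log2 scale, and the complex IV assembly factor SURF1 by 0.77. The remaining fall in the list of complexes III and IV was COX15, at -1.82 to -1.35 with 1 heart left out. A dim COX15 probe set rose (0.89 ± 0.27), and another dim one was not called (-0.84 ± 0.38). NDUFA9 (-0.46 ± 0.13) lost its call without P4 (-0.45), P9 (-0.34) or LV01 (-0.40). Of the 15 genes of ATP synthase and its nucleotide carriers 0 were called by limma in both scalings, with a median of -0.09; on the deposited scale alone 7 fell, ATP5MC1 (-0.52) and ATP5MC3 (-0.53) among them, after quantile normalization alone 1 rose, and with median centring 14 fell.

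Glucose uptake, glycolysis and glycogen genes, 27 on the array, gave 2 rises and 1 fall (7.41% and 3.7%). PFKP, which catalyses the committed step of glycolysis, read 314, 161 and 249 in controls and 1103, 497 and 723 in paced hearts, with a second, dimmer probe set also higher (1.69). ENO1, enolase, read 4188, 3583 and 3069 against 5051, 4555 and 5099 (0.62 ± 0.13), a call lost without P4 (0.62), P9 (0.51), LV01 (0.60) or LV04 (0.59) and a change that was -0.06 under median centring. PGK1, phosphoglycerate kinase, fell from 10968, 11785 and 10178 to 5834, 6954 and 8092 (-0.45 ± 0.11), a call lost without LV01 (-0.34). GAPDH was not called (0.01 ± 0.10; -0.39 as deposited).

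Matrix proteins and their enzymes gave more rises than falls: of 52 genes 7 rose (13.5%) and 2 fell (3.85%), with a median of 0.18 (0.15 as deposited). With each array centred on its median 2 rose and 14 fell, with a median of -0.35. The count of rises was 3 without P1, 4 without P9, LV01 or LV04, 5 without P4 and 7 without LV02. Connective tissue growth factor, CCN2, read 2151, 2524 and 1384 in controls and 2993, 2708 and 3472 in paced hearts. The groups stood apart by a small margin, and the change of 0.80 ± 0.21 lost its call without P1 (0.86), P9 (0.55), LV01 (0.82) or LV04 (0.70) and under median centring (0.12).

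The laminin beta chains moved in opposite directions: LAMB1 rose (1.14), and LAMB2, the chain of the mature muscle basement membrane, went from 506, 634 and 427 to 298, 277 and 172 (-1.40 ± 0.25). Both kept their calls whichever heart was left out. The collagen cross-linking enzyme LOXL2 read 295, 344 and 769 against 847, 1223 and 1094 (1.28 ± 0.31), a call lost without P1 (1.03) or P4 (1.13). MFAP4, a microfibril protein, read 307, 392 and 222 against 752, 494 and 958 (1.14 ± 0.29), a call lost without P9 (0.93) or LV04 (0.92). Under median centring LOXL2 (0.74) and MFAP4 (0.69) were not called. Biglycan, BGN, rose from a dim level of 52, 107 and 32.3 to 292, 297 and 299 (1.65 ± 0.42), a call lost without P9 (1.33).

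The fibrillar collagens were not called. COL1A1 read 494, 993 and 288 in controls and 795, 499 and 1738 in paced hearts (0.74 ± 0.61), and COL3A1 read 1056, 2049 and 625 against 806, 1108 and 1679 (0.15 ± 0.45). Both groups spread over more than 2-fold in each gene and overlapped. Of 11 fibroblast markers 1 rose and 1 fell (9.09% each), the fall being PDGFRL, from 653, 763 and 517 to 301, 388 and 210 (-1.38 ± 0.25). The other well-expressed PDGFRL probe set was not called, and the call was lost with the Dobermans in the fit (-1.33). The summed signal of the 11 markers was 18378 to 27874 in controls and 17792 to 22327 in paced hearts, ranges that overlap.

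TGF-beta, BMP and other growth factor genes gave 1 rise and 5 falls among 26 (3.85% and 19.2%), with a median of -0.00 (0.18 as deposited). Vascular endothelial growth factor A, VEGFA, went from 1215, 1505 and 1118 to 709, 820 and 653. The groups were apart and the change was -0.76 ± 0.16 (adjusted p = 0.00544), while Boxers read 677 to 911, within reach of the paced hearts (difference -0.13 ± 0.15). TGFB1 fell by 0.68 on the log2 scale, and SMAD5 (-1.84 ± 0.30) and the ligand BMP5 (-1.94 ± 0.34) fell below the well-expressed level. The receptor BMPR1A rose (0.74). FGF1 (-0.75 ± 0.18) lost its call without P4, P9, LV01, LV02 or LV04, with changes from -0.85 to -0.62.

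Of 8 endothelial markers 2 fell and 0 rose (25%), with a median of -0.41 (-0.51 as deposited). ECSCR, a surface protein of endothelial cells, went from 689, 662 and 893 to 70.8, 232 and 178 (-2.60 ± 0.31, adjusted p = 0.000369). TEK, the angiopoietin receptor, went from 426, 676 and 660 to 249, 244 and 275 (-1.47 ± 0.19), and in both genes every paced heart was below every control. Each has 1 other, dimmer probe set that was not called and leaned the other way, at 1.06 for ECSCR (1.60 as deposited) and 0.56 for TEK (1.00 as deposited). Von Willebrand factor, VWF, was not called (0.14 ± 0.29) on its brightest probe set, though a dim one rose (1.93). The water channel AQP1 was not called on its brightest probe set either (-0.34 ± 0.15; -0.55 as deposited, limma adjusted p = 0.0142), and another well-expressed one fell (-1.33 ± 0.22). The summed signal of the 8 markers, as deposited, was 12836 to 16608 in paced hearts and 17114 to 22172 in controls. Well-expressed genes as a whole had a median change of -0.12 on that scale. The part of the endothelial signal in the falls of KCNJ8 and VEGFA was not tested.

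Of 14 genes of the hypoxia response 3 fell (21.4%) and 1 rose, but 9 fell with median centring and none of the 4 kept its call with the Dobermans in the fit. EPAS1, the endothelial hypoxia-inducible factor HIF-2 alpha, went from 1264, 1257 and 1197 to 558, 512 and 542. Replicates were tight in both groups, and the change was -1.22 ± 0.14 (adjusted p = 0.000303). HIF3A, given above, changed upward. The other falls were VEGFA and PGK1, and the rise was adrenomedullin (ADM, 0.68 ± 0.18). The ADM call was lost without P1 (0.68), P9 (0.52), LV01 (0.58), LV02 (0.74) or LV04 (0.73), and under median centring (0.01).

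Cytokine, chemokine, adhesion and complement genes gave 6 rises and 1 fall among 26 (23.1% and 3.85%; median 0.15, and 0.49 as deposited), and 5 to 7 rises whichever heart was left out. Just 9 of the 26 are well expressed, and dimmer genes as a whole rose in 10.9% of cases with a median of 0.31 on the deposited scale. Under median centring 4 rose and 5 fell. The chemokine CCL3 read 22.2, 17 and 16.7 in controls and 176, 145 and 241 in paced hearts (2.01 ± 0.27). The neutrophil chemoattractant CXCL8 read 32, 23 and 22.7 against 262, 350 and 112 (2.05 ± 0.46), and the adhesion molecule ICAM1 read 13.6, 15.3 and 23.8 against 138, 172 and 143 (1.79 ± 0.40). All 3 are dim in both groups and without overlap on these probe sets. Another, dimmer CXCL8 probe set was not called (-0.32 ± 0.32), and its groups overlapped. It was called lower in paced than in Boxer hearts (-1.44 ± 0.30). The complement regulator CD59, which is well expressed, rose (0.83), and the chemokine CCL5 was the fall, at -1.48 ± 0.32, a call lost without P1 (-1.52), P4 (-1.36), P9 (-1.55), LV01 (-1.47) or LV02 (-1.24).

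Lymphocyte genes moved in both directions. CD3E, a chain of the T cell receptor complex, went from 314, 414 and 340 to 26.3, 47.9 and 29.6 (-3.27 ± 0.27), so its paced level lay near the floor of the array. NKG7, of cytotoxic lymphocytes, went from 114, 107 and 102 to 746, 581 and 556 (2.21 ± 0.36). The T cell coreceptor CD8A was dim in every heart, at 7.9 to 46.1 in controls and 74.7 to 149 in paced hearts, and lost its call without P1 (0.87), P4 (1.14), LV01 (1.22) or LV02 (0.96). CD4 was not called (0.21 ± 0.21). The 7 markers, 2 of them well expressed, summed to 1220 to 1616 in controls and 1752 to 2036 in paced hearts. These are deposited signals, and dimmer genes as a whole had a median change of 0.31 on that scale. The list's median was 0.21 after quantile normalization and 0.37 as deposited.

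Of 12 macrophage markers 2 rose (16.7%), CTSS on its brightest probe set alone and the dim receptor FCGR1A, and 0 fell. FCGR1A (1.50 ± 0.44) lost its call without P1, P4, LV01, LV02 or LV04, with changes from 1.20 to 1.56. LYZ (-0.23 ± 0.30) and CSF1R (-0.51 ± 0.45) were not called on their brightest probe sets, while another well-expressed CSF1R probe set fell (-1.34 ± 0.31). The summed signal of the list, 2962 to 5248 in controls and 4349 to 5108 in paced hearts, overlapped between the groups. The skeletal muscle markers summed to 2000 to 2840 in paced hearts and 1244 to 1772 in controls. These are deposited signals, and dimmer genes as a whole had a median change of 0.31 on that scale. The list's median was 0.97 after quantile normalization and 1.38 as deposited. Of the 8 markers 1 was well expressed, TNNT1, which was not called (0.51 ± 0.21). Of the dim ones TNNT3 rose (1.37), a call lost without P1 (1.38), P4 (1.29), P9 (1.44), LV01 (0.92) or LV04 (1.51), and MYH1 fell (-1.70), a call lost without P1 (-1.48) or LV02 (-1.53). MYL1, the fast skeletal light chain, was dim at 124 to 154 in controls and 336 to 458 in paced hearts, and was not called (1.08 ± 0.52). The part of other cells in the changes above was not tested.

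Among genes that relay adrenergic, angiotensin, endothelin and natriuretic signals, 2 of 35 rose and 5 fell (5.71% and 14.3%). The falls numbered 2 without P1, LV01 or LV02, 3 without P4 or P9 and 5 without LV04, and 0 rose without P1, P4 or LV01. ADCY6, a main adenylyl cyclase of heart muscle that makes cyclic AMP after beta-adrenergic stimulation, went from 1842, 1995 and 1180 to 554, 910 and 584. The groups did not overlap although P9 lay well below the other controls, and the change was -1.26 ± 0.26 (adjusted p = 0.00581). Boxers read 615 to 1055 and did not differ by a call from paced hearts (-0.20 ± 0.24). The calcineurin-dependent factor NFATC3 fell by 1.26 on the log2 scale at a dim level. RGS2, which damps Gq signals, read 173, 163 and 241 against 567, 404 and 409 (0.97 ± 0.29), a call lost without P1 (0.92), P4 (0.87) or LV01 (0.80) and under median centring (0.69).

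Cell death and p53 target genes gave 4 falls (25%, against 9.59% of all genes) and 0 rises among 16, with a median of -0.16. On the deposited scale alone 6 fell and 1 rose. With median centring 11 fell, and with the Dobermans in the fit 1 did. AIFM1, a mitochondrial flavoprotein that also serves respiratory chain assembly and is released in one form of cell death, went from 2412, 2225 and 3014 to 794, 896 and 1235. Paced hearts lay clearly below controls, the change was -1.28 ± 0.20 (adjusted p = 0.00121), and it was also lower than in Boxers (-0.88 ± 0.18). The p53 target CCNG1 went from 7079, 7080 and 7885 to 3297, 4526 and 3810 (-0.76 ± 0.14), and BCL2, which protects against apoptosis, from 812, 967 and 859 to 589, 603 and 496 (-0.68 ± 0.15). The fourth, the pro-apoptotic BAX (-1.93), was dim and lost its call without P1, P9, LV01, LV02 or LV04, with changes from -2.11 to -1.65. Dimmer probe sets of AIFM1 (-0.11 ± 0.37) and CCNG1 (0.08 ± 0.40) were not called.

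Genes of protein synthesis were read from 3 lists. Of 64 cytosolic ribosomal protein genes 1 rose (1.56%) and 3 fell (4.69%), with a median of 0.09 (-0.16 as deposited; -0.66 with median centring). The falls numbered 1 without P1, P4 or LV04, 2 without LV01 or LV02 and 6 without P9. RPS14 was the fall that held in every fit leaving out 1 heart, from 15234, 17552 and 14658 to 9918, 10655 and 8778 (-0.44 ± 0.11), but its 2 other well-expressed probe sets were not called (0.05 and 0.08). Of 54 mitochondrial ribosomal protein genes 2 rose (3.7%) and 6 fell (11.1%; median -0.11), among them MRPL38 (-0.71 ± 0.14) and the dim MRPS27 (-2.22 ± 0.44). Of 32 translation factors 3 rose and 3 fell (9.38% each), with 1 rise without P4, LV01 or LV02 and 1 fall without P1 or LV01. The repressor of cap-dependent translation EIF4EBP1 went from 986, 827 and 790 to 1279, 1638 and 1876 (0.98 ± 0.18; 0.35 and not called under median centring), and the initiation factor subunit EIF3D from 3610, 3541 and 3126 to 2036, 2318 and 2113 (-0.50 ± 0.11).

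Among genes that clear or fold protein, of 37 proteasome subunits and activators 4 fell (10.8%) and 0 rose, with a median of -0.14, and 2 fell without P1. The largest were the activator PSME3, from 1398, 1258 and 1467 to 929, 827 and 796 (-0.61 ± 0.11), and the ATPase PSMC5 (-0.60 ± 0.13). Of 28 genes of muscle ubiquitin ligases, ubiquitin and autophagy 4 fell (14.3%) and 1 rose (3.57%), and 2 fell without P1 or LV04. FBXO32, the atrogin-1 ligase that is best known for rising in wasting muscle, went from 978, 1121 and 1060 to 502, 627 and 615 (-0.88 ± 0.16), with no overlap. The rise was that of the lysosomal protease CTSB, from 4571, 4027 and 4715 to 6383, 5701 and 8927 (0.79 ± 0.17; 0.12 under median centring).

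Of 38 chaperone and folding genes 3 rose (7.89%) and 5 fell (13.2%), with 3 falls without P4, LV01, LV02 or LV04 and 1 rise without LV04. The mitochondrial chaperone HSPA9 went from 2632, 3148 and 3403 to 1735, 2169 and 1856 (-0.51 ± 0.12), and the cochaperone DNAJB1, below the well-expressed level, fell by 1.36 on the log2 scale. DNAJC3, a cochaperone of the endoplasmic reticulum, went from 215, 395 and 194 to 622, 490 and 580 (0.96 ± 0.24; 0.58 and not called under median centring). The small heat shock genes CRYAB (0.03 ± 0.08) and HSPB1 (0.08 ± 0.10) were not called on their brightest probe sets, and another well-expressed CRYAB probe set fell (-1.78 ± 0.34). SREBF1, the master regulator of fatty acid and sterol synthesis genes, was the single call among 15 genes of that list, from 679, 528 and 385 to 86.2, 215 and 201 (-2.03 ± 0.30).

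**Figure D5:**
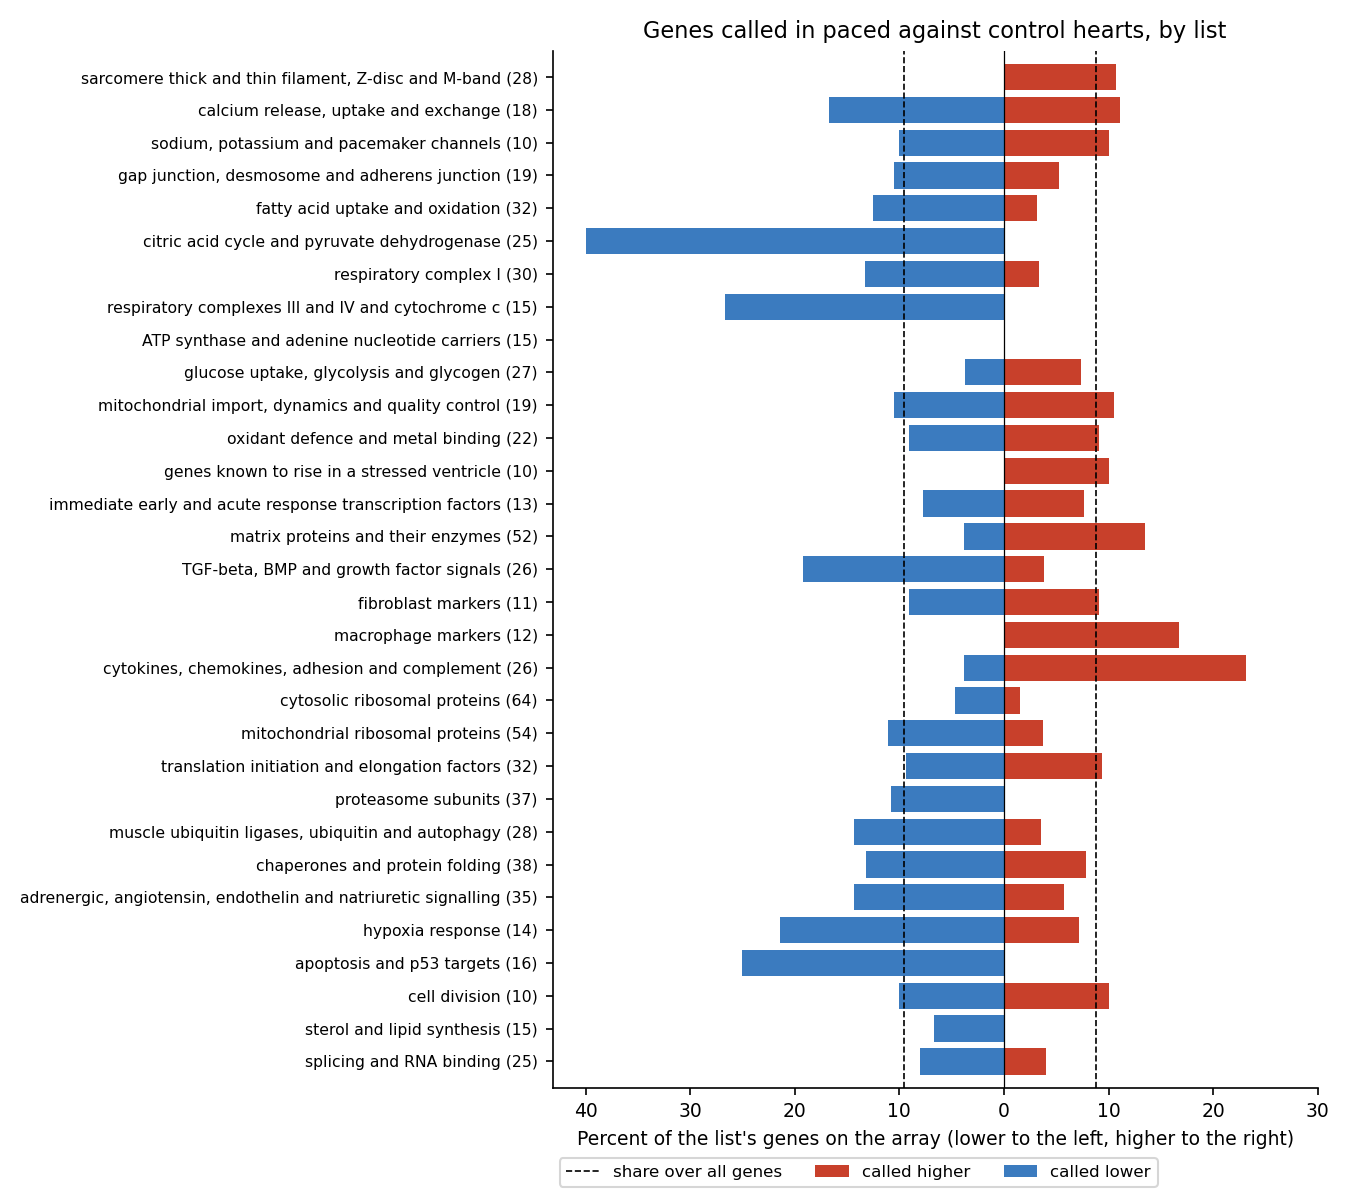
Percent of each list's genes called higher (red, right) and lower (blue, left) in paced against control hearts, with the number of genes on the array in brackets, for the lists with at least 10 such genes; dashed lines mark the shares over all 6540 genes, 8.82% higher and 9.59% lower. The citric acid cycle list reaches 40% lower, the cytokine list 23.1% higher, and ATP synthase has no call.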

How the data were processed

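Total RNA from heart tissue was labelled and hybridised to the Affymetrix canine array, per the labels' protocols. The deposited values are linear signal intensities that the authors computed with MAS5, per the submitters' processing notes; the 2% trimmed mean of every array is 500, which fixes the scale of each array. The number of arrays limits the precision. The fit took the 10 arrays of control mongrels, paced mongrels and Boxers, with 1 mean per group. The Dobermans entered as an alternative only, because earlier results of these data had shown their arrays to vary much more. That choice was thus made with the data known, and far fewer probe sets were called with the Dobermans in the fit. limma 3.58.1 in R 4.3.3 (lmFit, eBayes with an intensity trend, Benjamini-Hochberg adjustment over 23836 probe sets) was run on log2(signal + 16) and again after quantile normalization, and tested on simulated data. Fold changes on that scale understate the change of dim genes.

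Platform annotation gave 10549 probe sets 1 symbol, 138 several and 13149 none. Genes named are the 12 largest well-expressed rises and falls whose groups do not overlap, up to 4 genes of each list, and a list of heart failure genes; further list members were named after their values were seen. Members and lists were chosen with earlier results of these data known. Alternatives changed the scaling, filter, pseudocount (1 or 64), arrays, variance model or array weights, or left out each heart in turn. Levels of different probe sets are not compared.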

Additional observations from a re-analysis of the deposited data

Results flagged for a closer look

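Of the 122 genes named by rule and called, 78 also differed in the same direction between paced and Boxer hearts by limma in both scalings. Among the 24 of them with the largest changes, 19 did. That contrast shares the paced arrays with the one against controls. The paced minus Boxer log2 differences of the rises were 2.83 for ACTA1, 2.38 for RBM27, 1.95 for GPX3, 1.52 for ADAM23, 1.42 for ALKBH6, 1.41 for DDR1 and 1.16 for MAP4K2. Those of the falls were -3.23 for MTIF3, -3.12 for CD3E, -2.85 for ARHGAP17, -2.74 for UBXN1, -2.46 for ECSCR, -2.45 for MCAT and -2.34 for CLPB. VPS72 (-2.23), ZNF532 (-2.18), THRB (-1.94), GJA1 (-1.39) and CARNMT1 (-1.28) followed.

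Among the 4 Boxers 1 heart stood away from the others in UBXN1, with a gap of 0.832 of the group's range, and in THRB, with a gap of 0.898. Chance alone puts about 1 group in 20 past the limit used.

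The spike-in control probe sets, which read no dog gene, were 2.96 times as bright on the paced as on the control arrays.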

How the results depend on the processing

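Probe sets called higher numbered 5471 on the deposited scale alone, 1640 and 516 with dim probe sets left out below the 40th and 70th percentile, and 1638 with all 13 arrays; those called lower numbered 2966 after quantile normalization alone, 7191 with median centring, 691 with the 70th percentile filter and 755 with 13 arrays. Well-expressed rises numbered 99 with median centring and 183 with 13 arrays, and well-expressed falls 1264 on the deposited scale alone, 4426 with median centring and 212 with 13 arrays. The filters test fewer probe sets, and the 13 arrays add the Dobermans; the cause of the other differences was not tested. Leaving out any 1 heart kept all 4 counts within 1.5 times. Of the 122 genes named by rule and called, 77 kept their call whichever heart was left out, 103 with the 6 mongrel arrays and 49 with all 13. Under median centring ENO1 (-0.06), SOD2 (-0.12), IRF9 (-0.10), RPL23 (-0.05), EIF5B (-0.05), EIF3K (-0.13) and HNRNPM (-0.08) changed sign. No paired analysis was possible because nothing in the labels ties a control to a paced heart: numbers in the sample names are only names.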

Other observations

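Some well-expressed genes are read by 3 or more well-expressed probe sets that were called in 1 direction; these were picked after their values were seen. The essential light chain MYL6, of smooth muscle and non-muscle myosin, was higher on 4 of 8 probe sets, with log2 changes of 0.87 to 1.26. FECH, the last enzyme of haem synthesis, was lower on 3 of 5 (-1.30 to -0.75). The lysosomal enzymes LGMN (-2.32 to -0.54) and PPT1 (-0.99 to -0.62) and the signalosome subunit GPS1 (-1.09 to -0.43) were lower on 3 of 3. TPT1 was higher on 3 of 7 (0.61 to 2.76) and lower on 2.

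PDK4, which was not called against controls, was higher in paced than in Boxer hearts by 1.29 ± 0.38 (limma, adjusted p = 0.0279); the Boxers ranged from 2370 to 11056.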
